A study of Mus musculus with 18 samples.

Results

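Lin28a, Lin28b, Igf2bp1, Igf2bp2, Igf2bp3, Hmga2, Myc, Mycn and Mycl are growth regulators of embryonic cells, and their RNA was followed in mouse embryoid bodies in which the transcription factor Msgn1 was switched on. Members were the probe sets of the array annotated to exactly 1 gene symbol, that symbol being among these 9. They were 24 probe sets of 8 genes, out of 34945 probe sets with 1 symbol that cover 18193 genes. No probe set carried the symbol Igf2bp2 alone, and that gene was not analysed here. For each gene the probe set with the highest mean over all arrays is called its leading probe set.

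Lin28 proteins bind the precursors of the let-7 family of microRNAs and keep them from maturing in stem cells and early embryos. Mature let-7 lowers the mRNAs of many growth genes, among them Hmga2, the Igf2bp genes, the Myc genes and the Lin28 genes themselves. Igf2bp proteins bind, stabilise and localise mRNAs, Hmga2 is an architectural protein of chromatin, and Myc proteins are transcription factors that pair with Max to drive growth genes. The mature microRNAs were not read by these arrays. The sequences of 3 family members, from RefSeq (GRCm38.p6), are shown because the seed, bases 2 to 8 in capitals, links let-7 to the mRNAs it lowers. This seed is shared by 10 of 11 mature let-7 and miR-98 entries.
mmu-let-7a-5p: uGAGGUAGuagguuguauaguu
mmu-let-7g-5p: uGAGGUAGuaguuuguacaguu
mmu-miR-98-5p: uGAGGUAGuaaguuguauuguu

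The cells were A2loxFMsgn1 embryonic stem cells of strain 129P2, which had been kept with LIF on mitomycin-treated mouse fibroblasts before they were aggregated into embryoid bodies. In the induced groups, Flag-tagged Msgn1, a basic helix-loop-helix factor of the presomitic mesoderm, was switched on by 1 µg/ml doxycycline on day 2, and embryoid bodies were taken 12, 24 or 48 h later. The uninduced groups were the same line taken at the same times without doxycycline. There were 3 arrays in each of the 6 groups, 18 in all; no group with doxycycline but without the Msgn1 cassette was among them, and the labels do not say whether the biological replicates came from separate cultures, so p-values measure the spread between these samples.

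Signals are on a linear scale. Changes are induced minus uninduced, or later minus earlier, on the log2(signal + 32) scale, ± the standard error from 1 limma fit of all 18 arrays, and folds refer to signal + 32. A probe set was called at an adjusted p (Benjamini-Hochberg) under 0.05 over all 30518 probe sets that passed the filter on dim signals, as all 24 members did. Different probe sets bind with different strength, so levels are compared between groups and not between genes. Replicate arrays correlated at 0.9900 to 0.9935 and arrays of different groups at 0.9658 to 0.9926, ranges that overlap. Msgn1 itself had signals of 44.5 to 76.8 in the induced arrays, against 4.69 to 25.2 in the uninduced ones, with no overlap. The 9 core stem cell markers (such as Pou5f1, Nanog and Sox2) all passed the filter, and their summed signal was 13101 to 22927 over the induced and 17249 to 22346 over the uninduced arrays. Most markers of other cell types passed too: 10 of 12 for blood and endothelium (all but Hba-x and Hbb-y), 10 of 12 for endoderm (all but Afp and Ttr), 9 of 12 for neural cells and 13 of 15 for feeder fibroblasts. The filter was low, at a signal of 13.2, and 14282 of all 18193 genes passed it. Passing it therefore does not show that a cell type was present. In these bulk samples fewer cells of a type and less RNA per cell cannot be told apart.

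At 12 h after induction no member was called, at 24 h Hmga2 was higher in induced embryoid bodies, and at 48 h Hmga2 and Myc were. At 12 h, 0 of 24 member probe sets were called by limma, where 0.537% of all probe sets were; no member had an unadjusted p under 0.05. At 24 h, 3 of 24 were called, all higher and all of Hmga2, beside 1.52% of all probe sets called higher. At 48 h, 4 of 24 were called, all higher, 3 of Hmga2 and 1 of Myc, beside 4.34% of all called higher. The median change of the 24 was 0.01, 0.07 and -0.01 at 12, 24 and 48 h, near the 0.004, -0.003 and 0.001 of all probe sets tested. No member was called lower at any of these times, beside 25, 113 and 1073 of all 30518 probe sets at 12, 24 and 48 h.

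**Figure D1:**
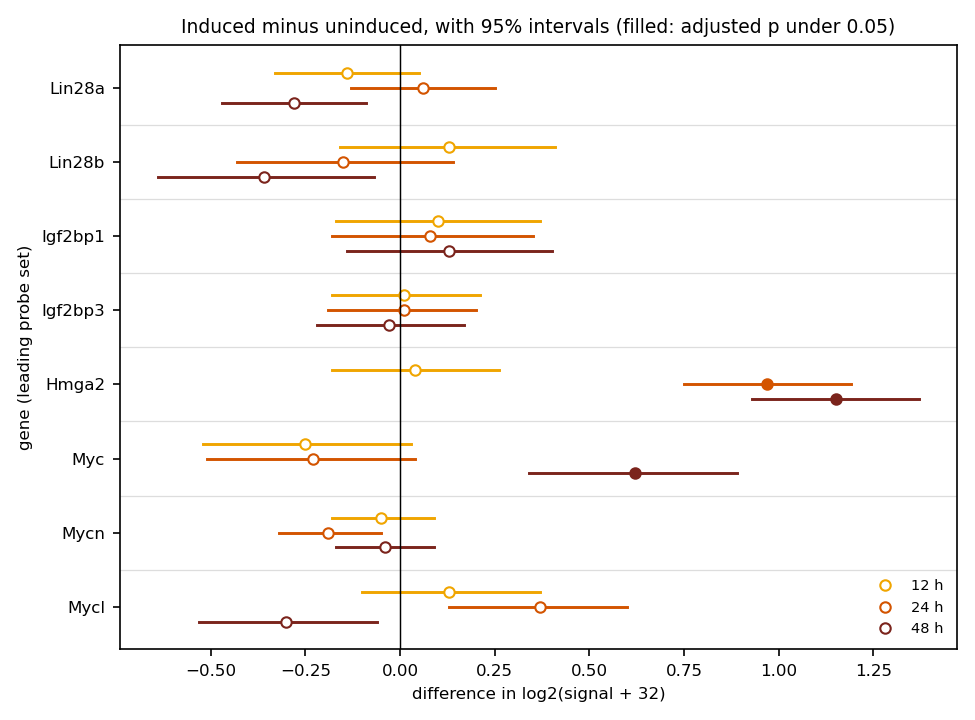
Induced minus uninduced embryoid bodies for the leading probe set of each gene, as the difference in log2(signal + 32), at 12, 24 and 48 h after induction. Points are differences of group means (3 arrays each), lines are 95% intervals and filled points passed an adjusted p of 0.05; only Hmga2 (0.97 at 24 h and 1.15 at 48 h) and Myc (0.62 at 48 h) have filled points.

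Hmga2, whose protein bends DNA and loosens chromatin in embryonic cells, changed most. Its leading probe set (1450780_s_at) read 397, 340 and 406 in the 3 induced arrays at 12 h, against 352, 397 and 358 in the uninduced ones. At 24 h it read 593, 685 and 780 in induced arrays, against 325, 318 and 351 in uninduced arrays. At 48 h it read 2962, 2611 and 2592 in induced arrays, against 1309, 1336 and 1008 in uninduced arrays. The groups overlapped at 12 h and were apart at 24 and 48 h, and all arrays at 48 h lay above all earlier ones.

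For this probe set the Hmga2 change on induction was 0.04 ± 0.106 at 12 h (95% interval -0.18 to 0.26, limma adjusted p = 0.944), 0.97 ± 0.106 at 24 h (1.96-fold, limma adjusted p = 5.64e-06) and 1.15 ± 0.106 at 48 h (2.22-fold, limma adjusted p = 1.37e-07). The effect at 24 h exceeded that at 12 h by 0.93 ± 0.149 (limma adjusted p = 0.0125). That call ended without induced 12 h replicate 2 (adjusted p = 0.0685), without induced 24 h replicate 2 (adjusted p = 0.0522) and when variances were moderated without an intensity trend (adjusted p = 0.0663). The effect at 48 h exceeded that at 24 h by 0.17 ± 0.149, which did not pass (limma adjusted p = 0.759; 95% interval -0.14 to 0.48).

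The identifier of this probe set, with _s_, marks possible matches to other transcripts, but 2 further Hmga2 probe sets without that mark moved with it. Probe set 1422851_at averaged 632 ± 125 with induction and 400 ± 52.9 without it at 24 h, and 2485 ± 199 with and 965 ± 119 without it at 48 h (SD, n = 3 each). Its changes were 0.61 ± 0.126 and 1.34 ± 0.126 (limma adjusted p = 0.00898 and 1.89e-07). Probe set 1450781_at averaged 252 ± 35.4 with induction and 144 ± 22.6 without it at 24 h, and 1309 ± 225 with and 538 ± 43.2 without it at 48 h (SD, n = 3 each). Its changes were 0.69 ± 0.12 and 1.22 ± 0.12 (limma adjusted p = 0.00202 and 3.31e-07). All 3 probe sets put every induced array above every uninduced array at 24 and 48 h. The 24 h call of 1422851_at ended when only the arrays compared were fitted (adjusted p = 0.0829), without induced 24 h replicate 3 (adjusted p = 0.0667) and without uninduced 24 h replicate 2 (adjusted p = 0.0662). Between 12 and 24 h the induction effect differed by 0.41 ± 0.179 for 1422851_at and 0.68 ± 0.17 for 1450781_at, neither past the threshold (limma adjusted p = 0.704 and 0.242). Between 24 and 48 h the differences were 0.73 ± 0.179 for 1422851_at, which passed (limma adjusted p = 0.0386), and 0.53 ± 0.17 for 1450781_at, which did not (limma adjusted p = 0.151). The 1422851_at call ended in 15 of 28 alternatives, 10 of them single arrays left out (adjusted p up to 0.116). Whether the probe sets differ in this was not tested. The remaining Hmga2 probe set, 1446196_at, read 0.593 to 19.9 on all 18 arrays, below the offset of 32, and was called in no comparison.

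**Figure D2:**
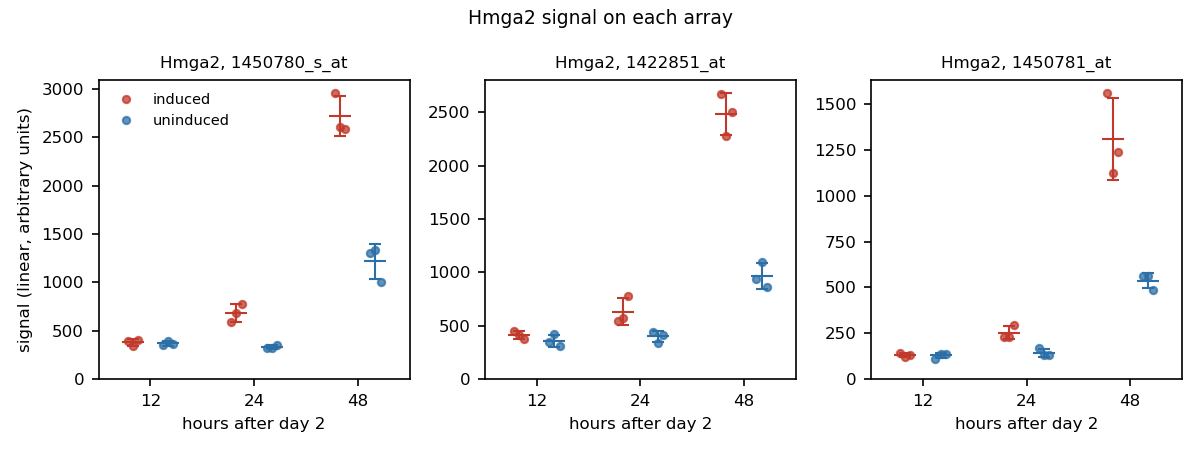
Signal (linear, from 0) of 3 Hmga2 probe sets on each array at 12, 24 and 48 h, induced to the left of uninduced. Dots are arrays, bars the mean and SD of 3; in each panel the induced arrays at 48 h are the highest and the uninduced arrays at 48 h come next.

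Hmga2 also rose with time in both conditions. In induced embryoid bodies the leading probe set rose at both steps, by 0.79 ± 0.106 between 12 and 24 h (limma adjusted p = 6.18e-05) and by 1.95 ± 0.106 between 24 and 48 h (limma adjusted p = 1.97e-11). In uninduced ones it changed by -0.14 ± 0.106 over the first step (limma adjusted p = 0.577) and rose by 1.77 ± 0.106 over the second (limma adjusted p = 1.44e-10). The order of the group means was induced 48 h, uninduced 48 h and induced 24 h, each apart from the next, and then the 3 remaining groups, whose arrays all lay within 318 to 406. Induced arrays at 24 h (593 to 780) lay below the uninduced arrays at 48 h (1008 to 1336).

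Markers of several cell types also differed on induction, and those of the forming mesoderm did so already at 12 h, when the Hmga2 arrays overlapped. The summed signal of the 15 streak and presomitic mesoderm markers, all measured, was 1785 to 1789 in induced and 838 to 983 in uninduced arrays at 12 h, 3518 to 4679 in induced against 1130 to 1610 in uninduced arrays at 24 h, and 12197 to 12926 in induced against 7433 to 9640 in uninduced arrays at 48 h. At 12 h 3 of the 15 were called, all higher (Dll3, Dll1 and Cited1), at 24 h 10 and at 48 h 11 were, and none was lower. Of all genes, each by its kept probe set with the highest mean, 0.7% were called higher at 12 h, 2.2% at 24 h and 6% at 48 h. At 48 h 4.78% of all genes were called lower. The 14 feeder fibroblast markers with a probe set summed to 1142 to 1330 in induced and 1013 to 1149 in uninduced arrays at 12 h, 1139 to 1208 in induced against 1025 to 1160 in uninduced arrays at 24 h, and 945 to 1115 in induced against 705 to 907 in uninduced arrays at 48 h. Of the 13 tested, 0 were called at 12 h, 1 was higher at 24 h and 3 were higher at 48 h, with none lower. At 48 h the 12 blood and endothelium markers summed to 1685 to 1883 in induced against 437 to 688 in uninduced arrays (6 of the 10 tested higher, 0 lower). The 9 primed epiblast markers summed to 8723 to 11952 in induced against 14922 to 18240 in uninduced arrays (1 higher, 7 lower), and the 12 endoderm markers to 1679 to 1834 in induced against 2577 to 3121 in uninduced arrays (2 higher and 4 lower of 10 tested). The 11 neural markers with a probe set summed to 406 to 548 in induced against 634 to 701 in uninduced arrays (1 higher and 1 lower of 9 tested). At 12 h the neural sums lay the other way, at 1181 to 1338 in induced against 868 to 947 in uninduced arrays. The blood and endothelium sums at 12 h were 635 to 727 in induced against 526 to 544 in uninduced arrays. Those of primed epiblast and endoderm overlapped at 12 h. The part of any of these cells in the Hmga2 result, or in that of any other member at 48 h, was not tested. Over the 18 arrays the genes closest to Hmga2 were Evx1, a homeobox gene of the posterior streak (r = 0.987), Rspo3, a secreted enhancer of Wnt signalling (r = 0.986), and the integrin gene Itga8 (r = 0.986), among the 4315 genes whose group means spanned at least 0.5 log2 units. Rspo3, which is also among the 15 mesoderm markers, averaged 574 ± 68.2 with induction and 274 ± 25.7 without it at 48 h (SD, n = 3 each). These correlations share the time and induction structure of the arrays and describe it.

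Promoter sequence from RefSeq (GRCm38.p6) was matched for 7 of the 9 genes, all but Igf2bp1 and Myc. The 250 bases before the start of Hmga2 (chr10:120476470-120476719, minus strand) are shown since this gene moved most. They are 70.8% pyrimidine, where the median over 32841 promoters of that length was 50% and the 95th percentile 60.4%, and their longest run of C and T was 23 bases.
Hmga2: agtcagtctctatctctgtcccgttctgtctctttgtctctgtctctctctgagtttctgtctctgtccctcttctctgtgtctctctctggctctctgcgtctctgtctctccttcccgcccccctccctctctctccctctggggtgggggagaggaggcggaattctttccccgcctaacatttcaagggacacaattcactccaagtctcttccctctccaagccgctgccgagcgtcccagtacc

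The E-box CANNTG, the general letters bound by basic helix-loop-helix factors and the same on both strands, was not in this window; 66.2% of the 32841 promoters hold at least 1, and 4 of the 7 members did (Lin28b, Igf2bp3, Mycn and Mycl). CACGTG, the form of that E-box that Myc and Max prefer, was in 6.02% of all promoters and in those of Lin28b and Igf2bp3. A match describes letters and not binding.

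Myc, the founding member of its family, showed its induction effect late. Its only probe set (1424942_a_at) read 341, 382 and 405 in induced arrays at 12 h, against 481, 506 and 377 in uninduced arrays. At 24 h it read 295, 347 and 436 in induced arrays, against 391, 368 and 524 in uninduced arrays. At 48 h it read 723, 627 and 658 in induced arrays, against 464, 423 and 388 in uninduced arrays. The groups overlapped at the earlier times, with the induced means on the lower side, and were apart at 48 h with the induced arrays higher.

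The Myc differences were -0.25 ± 0.132 at 12 h and -0.23 ± 0.132 at 24 h (limma adjusted p = 0.594 and 0.515; 95% intervals -0.52 to 0.03 and -0.51 to 0.04). At 48 h Myc was higher by 0.62 ± 0.132 (1.54-fold, limma adjusted p = 0.00347). The effect at 48 h exceeded that at 24 h by 0.85 ± 0.187 (limma adjusted p = 0.0172), but the call ended without induced 24 h replicate 1 (adjusted p = 0.0581), induced 48 h replicate 1 (adjusted p = 0.0578) or uninduced 48 h replicate 3 (adjusted p = 0.0534). In induced embryoid bodies Myc rose by 0.86 ± 0.132 between 24 and 48 h (limma adjusted p = 6.03e-05). In uninduced ones it changed by 0.00 ± 0.132 over the same step (limma adjusted p = 0.993; 95% interval -0.27 to 0.28). At 24 h the arrays numbered 3 had the highest Myc signal in both groups. The genes closest to Myc over the 18 arrays were Fmo1 (r = 0.897), a flavin monooxygenase gene that is dim here, with mean signals of 1.91 to 26.6 over the groups, Lifr, the LIF receptor gene (r = 0.871), and the transcriptional cofactor gene Cited2 (r = 0.858).

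Mycn, the Myc family member typical of the epiblast and of embryonic mesoderm and neural tissue, fell with time in both conditions. Its leading probe set (1417155_at) read 2279, 2345 and 2281 in induced arrays at 12 h, against 2343, 2407 and 2387 in uninduced arrays. At 24 h it read 1783, 1916 and 2049 in induced arrays, against 2082, 2099 and 2370 in uninduced arrays. At 48 h it read 1246, 1273 and 1315 in induced arrays, against 1378, 1255 and 1316 in uninduced arrays. The arrays at 48 h were the lowest in both conditions, and induced and uninduced arrays overlapped there.

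Between 24 and 48 h Mycn fell by 0.57 in induced embryoid bodies and by 0.71 in uninduced ones (standard error 0.0638 each; limma adjusted p = 8.69e-07 and 4.91e-08). Between 12 and 24 h it fell by 0.26 in induced embryoid bodies (limma adjusted p = 0.0119), a call that ended without induced 12 h replicate 2 (adjusted p = 0.0504) or induced 24 h replicate 1 (adjusted p = 0.0743). In uninduced ones the change over that step was -0.12 ± 0.0638 (limma adjusted p = 0.365). The induction effect on Mycn did not pass at any time. At 24 h every induced array lay below every uninduced one and the difference was -0.19 ± 0.0638 (limma adjusted p = 0.178; 95% interval -0.32 to -0.05), and at 48 h it was -0.04 ± 0.0638 (95% interval -0.17 to 0.09). The second probe set, 1425922_a_at, also fell between 24 and 48 h in induced embryoid bodies, by 0.50 (limma adjusted p = 0.0101), and stood at -0.30 ± 0.133 in uninduced ones (limma adjusted p = 0.131). The third, 1425923_at, read 19.6 to 48.6 and was called nowhere.

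The genes closest to Mycn were Dppa2, a stem cell gene lost on differentiation (r = 0.989), Fam3c, which encodes a secreted protein (r = 0.986), and Sec24d, a coat protein gene of vesicles (r = 0.984). The summed signal of the 13 naive stem cell markers also fell with time. It was 6416 to 6541 in induced and 7423 to 7819 in uninduced arrays at 12 h, where the Mycn arrays overlapped. At 24 h it was 3603 to 4566 in induced against 5074 to 5824 in uninduced arrays, and at 48 h 2002 to 2245 against 1910 to 2256. At 48 h 2 of the 13 were called higher on induction and 5 lower, beside 6% and 4.78% of all genes. The part of these markers in the Mycn result was not tested. The 250 bases before the Mycn start (chr12:12941837-12942086, minus strand) are shown because they hold TTTGGCGC, letters that E2F cell cycle factors bind, at 2 places, 183 and 168 bases before the start. Searched on both strands, these letters were in 0.417% of all 32841 promoters and in no other of the 7 matched members. The capitals mark these copies and the single E-box CANNTG, which does not overlap them.
Mycn: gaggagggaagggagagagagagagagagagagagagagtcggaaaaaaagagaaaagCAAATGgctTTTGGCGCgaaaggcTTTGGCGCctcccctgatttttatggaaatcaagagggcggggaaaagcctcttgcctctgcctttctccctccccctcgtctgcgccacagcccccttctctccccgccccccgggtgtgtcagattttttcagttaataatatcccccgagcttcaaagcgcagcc

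Mycl, the third family member, had an induction effect that differed between 24 and 48 h. Its leading probe set (1434777_at) read 276, 342 and 285 in induced arrays at 12 h, against 294, 231 and 290 in uninduced arrays. At 24 h it read 409, 412 and 371 in induced arrays, against 287, 309 and 307 in uninduced arrays. At 48 h it read 292, 421 and 337 in induced arrays, against 474, 405 and 423 in uninduced arrays. Induced arrays were higher without overlap at 24 h, while at 48 h the groups overlapped through induced replicate 2.

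The Mycl differences were 0.37 ± 0.112 at 24 h (limma adjusted p = 0.112; 95% interval 0.13 to 0.60) and -0.30 ± 0.112 at 48 h (limma adjusted p = 0.126; 95% interval -0.53 to -0.06), so neither passed. The effect at 48 h minus that at 24 h was -0.66 ± 0.159 and passed (limma adjusted p = 0.0323). This call ended without a filter (adjusted p = 0.0602), without an intensity trend (adjusted p = 0.0571) and when any 1 of 8 arrays was left out (adjusted p up to 0.108). In induced embryoid bodies Mycl rose by 0.37 ± 0.112 between 12 and 24 h (limma adjusted p = 0.0413, and 0.0724 after quantile normalization), and changed by -0.18 ± 0.112 between 24 and 48 h (limma adjusted p = 0.309). In uninduced ones it rose by 0.48 ± 0.112 between 24 and 48 h (limma adjusted p = 0.00408). The other Mycl probe sets read 4.13 to 47 and were not called. The gene closest to Mycl was Lrig3 (r = 0.912), followed by Pkdcc (r = 0.892) and Prom1 (r = 0.883).

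**Figure D3:**
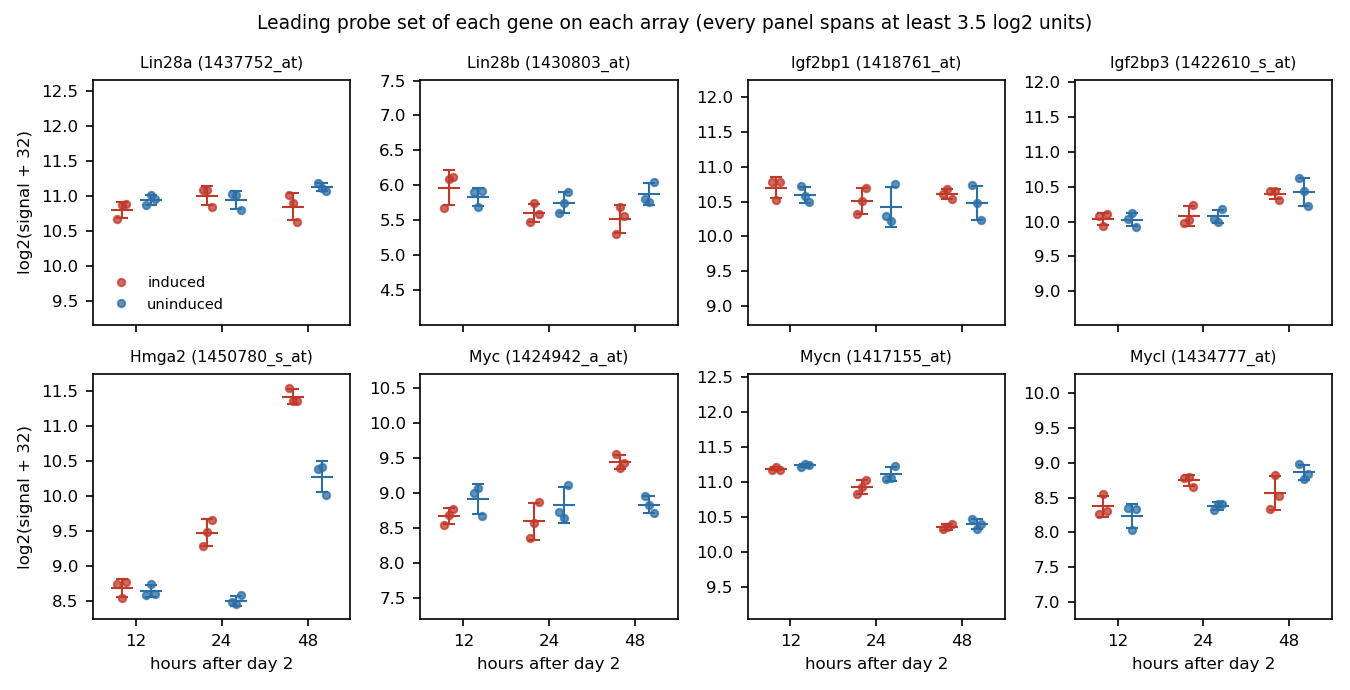
log2(signal + 32) of the leading probe set of each of the 8 genes on each array at 12, 24 and 48 h, induced to the left of uninduced; dots are arrays, bars the mean and SD of 3, and each panel spans at least 3.5 log2 units. Hmga2 climbs to 48 h in both conditions, Mycn declines in both, Myc stands higher at 48 h in induced arrays, and Lin28a and Igf2bp1 stay within narrow ranges.

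Lin28a and Lin28b, which block let-7 maturation, showed no called change in the fit over all arrays without a block. The leading probe set of Lin28a (1437752_at) read 1600, 1832 and 1849 in induced arrays at 12 h, against 1831, 2038 and 1946 in uninduced arrays, and 2139, 2137 and 1806 in induced against 2048, 2028 and 1751 in uninduced arrays at 24 h. At 48 h it read 2027, 1868 and 1551 in induced arrays, against 2300, 2190 and 2117 in uninduced arrays. All induced arrays lay below all uninduced ones at 48 h, and the groups overlapped before. The difference at 48 h was -0.28 ± 0.0911 (limma adjusted p = 0.063; 95% interval -0.47 to -0.09). This missed the threshold, but Lin28a passed with 1 probe set per gene (adjusted p = 0.0445) and with a filter at the 60th percentile (adjusted p = 0.0493). Induced replicate 3, the lowest array, weighed most: without it the difference was -0.17 (adjusted p = 0.339), and without induced replicate 1 it was -0.36 (adjusted p = 0.0242). The summed signal of the core stem cell markers at 48 h was 13101 to 14885 in induced arrays, against 17249 to 17561 in uninduced arrays; their part in the Lin28a values was not tested. The second Lin28a probe set, 1421749_at, read 59 to 186 with wide replicate spread and stood at -0.09 ± 0.246 at 48 h. Lin28b, the paralogue, had only a dim probe set (1430803_at), which averaged 31.1 ± 10.3 with induction and 25.3 ± 4.86 without it at 12 h, and 16.8 ± 4.48 with and 22 ± 5.7 without it at 24 h (SD, n = 3 each). It read 7.42, 19.5 and 15.2 in induced arrays at 48 h, against 24.1, 22.1 and 34.4 in uninduced arrays. These arrays did not overlap, but the difference of -0.36 ± 0.137 did not pass (limma adjusted p = 0.133; 95% interval -0.64 to -0.07), and with signals about or under the offset of 32 it understates any change.

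Igf2bp1 and Igf2bp3, RNA-binding proteins of the fetal type, had no probe set called on induction, and Igf2bp3 was higher at the last time. The leading probe set of Igf2bp1 (1418761_at) averaged 1632 ± 169 with induction and 1517 ± 125 without it at 12 h, 1431 ± 194 with and 1358 ± 292 without it at 24 h, and 1531 ± 80.2 with and 1411 ± 248 without it at 48 h (SD, n = 3 each). Its induction differences were 0.10, 0.08 and 0.13 with 95% intervals within -0.18 to 0.40, and none of the 4 Igf2bp1 probe sets was called in any comparison. The leading probe set of Igf2bp3 (1422610_s_at) averaged 1022 ± 63.8 with induction and 1013 ± 70.2 without it at 12 h, 1053 ± 109 with and 1047 ± 75.3 without it at 24 h, and 1318 ± 69.2 with and 1351 ± 191 without it at 48 h (SD, n = 3 each). Induced and uninduced arrays overlapped at every time, and the induction differences were 0.01, 0.01 and -0.03, with 95% intervals within -0.22 to 0.21.

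Between 24 and 48 h this Igf2bp3 probe set rose by 0.32 ± 0.0933 in induced embryoid bodies (limma adjusted p = 0.0191) and by 0.35 ± 0.0933 in uninduced ones (limma adjusted p = 0.0108). Of the 6 Igf2bp3 probe sets 3 were called higher over that step in each condition, but not the same 3. Probe set 1433732_x_at was called in induced embryoid bodies (limma adjusted p = 0.0254) and not in uninduced ones (limma adjusted p = 0.727). The leading probe set and 1422611_s_at carry the _s_ mark. In uninduced embryoid bodies neither 1433731_at nor 1450687_at, without such a mark, passed (limma adjusted p = 0.236 and 0.0581). Probe set 1453957_a_at, also without it, did pass there (0.37 ± 0.121, limma adjusted p = 0.0388). It was also called higher between 12 and 24 h in induced embryoid bodies (0.40 ± 0.121, limma adjusted p = 0.0424). The call of the leading probe set ended in induced embryoid bodies when any 1 of 4 arrays was left out (adjusted p up to 0.0944, without induced 24 h replicate 1) and in uninduced ones without uninduced 48 h replicate 1 (adjusted p = 0.0907) or uninduced 24 h replicate 2 (adjusted p = 0.0511). The probe sets did not all move: 1433731_at stood at 0.08 ± 0.0907 with induction and 0.17 ± 0.0907 without it over that step. At 48 h, 1433732_x_at, which by its _x_ may also detect related transcripts, read 875, 838 and 730 in induced arrays, against 700, 632 and 682 in uninduced arrays (0.26 ± 0.12, limma adjusted p = 0.226).

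More member probe sets were called between 24 and 48 h than between 12 and 24 h, as was true of all probe sets. Between 12 and 24 h 6 of 24 member probe sets were called in induced embryoid bodies, 5 higher and 1 lower, beside 5.34% of all probe sets called higher and 3.61% called lower. In uninduced ones 0 were called by limma, beside 2.02% of all, and no member had an unadjusted p under 0.05. Between 24 and 48 h 9 of 24 were called in induced embryoid bodies, 7 higher and 2 lower, beside 9.55% of all higher and 8.49% lower. In uninduced ones 8 were called, 7 higher and 1 lower, beside 9.51% of all higher and 7.74% lower. The induction effect itself differed between 12 and 24 h for 1 of 24 (Hmga2, larger), beside 0.0328% of all in that direction. Between 24 and 48 h it differed for 3 of 24, upward for Hmga2 and Myc beside 0.813% of all, and downward for Mycl beside 0.849% of all. These comparisons share arrays with each other. Probe sets of 1 gene are not independent, and between 24 and 48 h Hmga2 and Igf2bp3 supply 6 of the 9 in induced and 6 of the 8 in uninduced embryoid bodies.

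**Figure D4:**
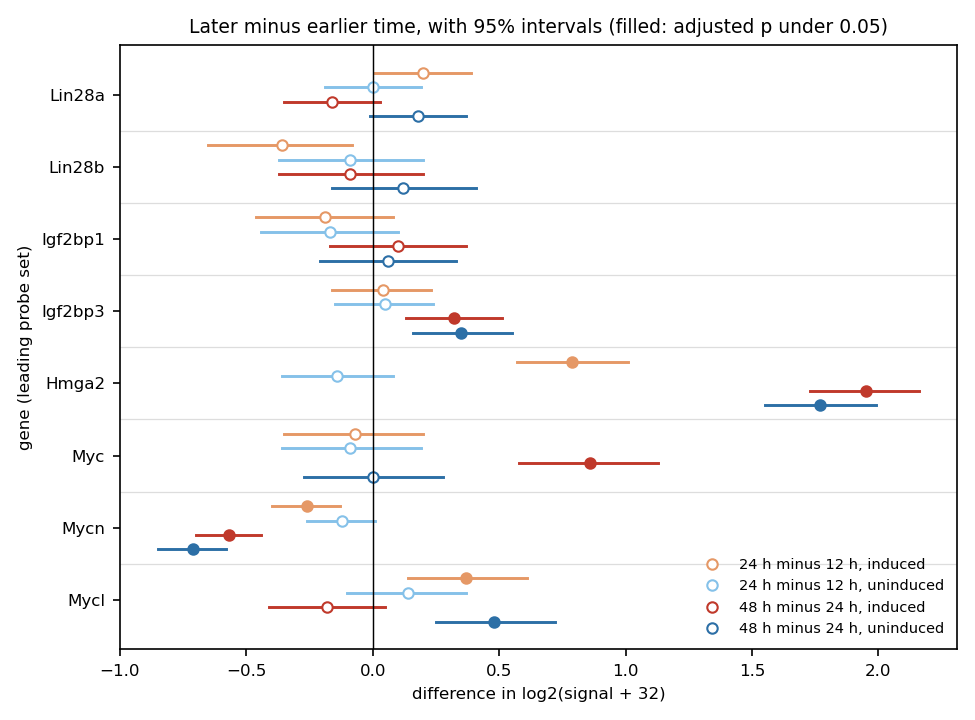
Later minus earlier time for the leading probe set of each gene, as the difference in log2(signal + 32), by condition. Points are differences of group means (3 arrays each), lines 95% intervals and filled points passed an adjusted p of 0.05; between 24 and 48 h Hmga2 lies at 1.95 in induced and 1.77 in uninduced embryoid bodies, Myc at 0.86 in induced and 0.00 in uninduced ones, and Mycn at -0.57 in induced and -0.71 in uninduced ones.

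The partners of these genes were read through lists of pathway members, each gene by its kept probe set with the highest mean; the medians are beside those of all genes tested, which lay within 0.030 of 0. Of all 14282 genes taken in that way, 0.7% were called higher on induction at 12 h, 2.2% at 24 h and 6% at 48 h, and 4.78% lower at 48 h. Among let-7 processing genes and Lin28 cofactors, 0 of 22 were called at 12 h, 3 rose and 0 fell at 24 h (beside 2.2% of all genes higher), and 1 rose and 0 fell at 48 h (beside 6% higher; median change -0.01 at 24 h and 0.03 at 48 h). Tut4, the uridylyl transferase that Lin28a recruits to let-7 precursors, averaged 451 ± 35.2 with induction and 348 ± 33.5 without it at 24 h, and 687 ± 52.1 with and 495 ± 18.2 without it at 48 h (0.35 ± 0.0874 and 0.45 ± 0.0874; limma adjusted p = 0.04 and 0.00158). Prkra, which encodes a Dicer partner, rose by 0.64 ± 0.118 at 24 h, and Msi1, an RNA-binding protein gene, by 0.36 ± 0.0927.

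Of the let-7 target genes outside the members, 26 of 30 were measured; 1 rose at 12 h, 3 rose at 24 h (2.2% of all genes did), and 4 rose and 1 fell at 48 h (6% and 4.78% of all genes did; medians 0.05, 0.14 and 0.07). Ccnd2, a D-type cyclin gene, averaged 1071 ± 147 with induction and 497 ± 102 without it at 48 h (1.07 ± 0.118, limma adjusted p = 1.7e-06). Nr6a1, a nuclear receptor gene of the early embryo, rose at 12 h (0.49 ± 0.0813, limma adjusted p = 0.00285). Prtg, an immunoglobulin superfamily gene, rose by 0.90 ± 0.192 at 24 h and 0.72 ± 0.192 at 48 h, and Arid3a, a DNA-binding protein gene, by 0.61 ± 0.108 at both times. The gene that fell at 48 h was again Nr6a1, at 1230 ± 99 in induced and 1520 ± 125 in uninduced embryoid bodies (-0.30 ± 0.0813, limma adjusted p = 0.0238), named here after its value was seen. Igdcc3, a relative of Prtg, rose by 0.49 ± 0.114 at 24 h. Between 24 and 48 h, 10 of the 26 rose and 3 fell in induced embryoid bodies, and 11 rose and 3 fell in uninduced ones. Over that step 9.55% of all probe sets were called higher and 8.49% lower in induced embryoid bodies, and 9.51% and 7.74% in uninduced ones.

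Among Igf2bp partners and bound mRNAs, 17 of 19 were measured, and 0, 1 and 3 rose at 12, 24 and 48 h with none lower, beside 0.7%, 2.2% and 6% of all genes higher; their medians were 0.02, -0.02 and -0.02. Igf2, the growth factor whose mRNA gave the Igf2bp proteins their name, stood apart in size. It averaged 444 ± 67.4 with induction and 144 ± 11.5 without it at 24 h, and 3988 ± 882 with and 247 ± 26.5 without it at 48 h (1.42 ± 0.142 and 3.83 ± 0.142; limma adjusted p = 1.84e-06 and 2.24e-13), while the Igf2bp1 and Igf2bp3 probe sets were not called. Stau1, an RNA transport protein gene, rose by 0.47 ± 0.145 and Cd44, a hyaluronan receptor gene, by 0.45 ± 0.136 at 48 h.

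In the Max network and among regulators of Myc turnover, 23 of 24 genes were measured, and 0 were called at 12 h, 1 rose at 24 h, and 1 rose and 1 fell at 48 h, shares near those of all genes (2.2% higher at 24 h, 6% higher and 4.78% lower at 48 h). Mxd4, which competes with Myc for Max, rose at 24 h (0.55 ± 0.122, limma adjusted p = 0.0163). At 48 h Usp28, a deubiquitinase that stabilises Myc, averaged 272 ± 22.5 in induced and 489 ± 44 in uninduced embryoid bodies (-0.78 ± 0.0888, limma adjusted p = 2.76e-06), and Bin1, a Myc-interacting adaptor gene, rose by 0.51 ± 0.106. Of 37 measured Myc target genes of growth, none was called at 12 or 24 h, and 2 rose and 1 fell at 48 h, beside 6% and 4.78% of all genes, with medians of -0.01, -0.08 and -0.01. Mthfd2 and Shmt2, enzymes of mitochondrial folate metabolism, rose (0.55 ± 0.112 and 0.45 ± 0.113; limma adjusted p = 0.0021 and 0.0134), and the telomerase gene Tert fell by 0.46 (limma adjusted p = 0.0391). Between 24 and 48 h, 6 of these 37 fell in induced and 10 fell in uninduced embryoid bodies, beside 11.8% of all genes in induced and 10.5% in uninduced ones. None rose in either, where 9.55% of all probe sets were called higher in induced and 9.51% in uninduced embryoid bodies. Those 2 shares count probe sets and not genes. In a fit of 1 probe set per gene, 1854 of 14282 genes were called higher in induced and 1830 in uninduced embryoid bodies.

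Of 12 measured Hmga2 partners and targets, 1 rose at 12 h, 3 at 24 h and 6 at 48 h, beside 0.7%, 2.2% and 6% of all genes higher, and none fell, with medians of 0.15, 0.21 and 0.40. Snai1, a repressor of epithelial genes that Hmga2 can activate, averaged 151 ± 15 with induction and 58.4 ± 8.23 without it at 48 h (1.02 ± 0.127, limma adjusted p = 7.92e-06), after 0.61 ± 0.127 at 24 h. Its relative Snai2 rose by 1.03 ± 0.173 at 48 h. Cdkn1c, a cell cycle inhibitor gene, rose at 12 h (0.88 ± 0.123) and at 48 h (0.94 ± 0.123), and Twist1 and Smad3 rose by 0.62 at 24 h. Between 24 and 48 h, 6 of the 12 rose and 1 fell in induced embryoid bodies. In uninduced ones 5 rose and 4 fell. Over that step 9.55% of all probe sets were called higher and 8.49% lower in induced embryoid bodies, and 9.51% and 7.74% in uninduced ones. In a fit of 1 probe set per gene, 1854 of 14282 genes were called higher and 1837 lower in induced embryoid bodies. In uninduced ones 1830 were higher and 1676 lower. The mesoderm markers were higher on induction at 12, 24 and 48 h, as given above, and the part of those cells was not tested.

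**Figure D5:**
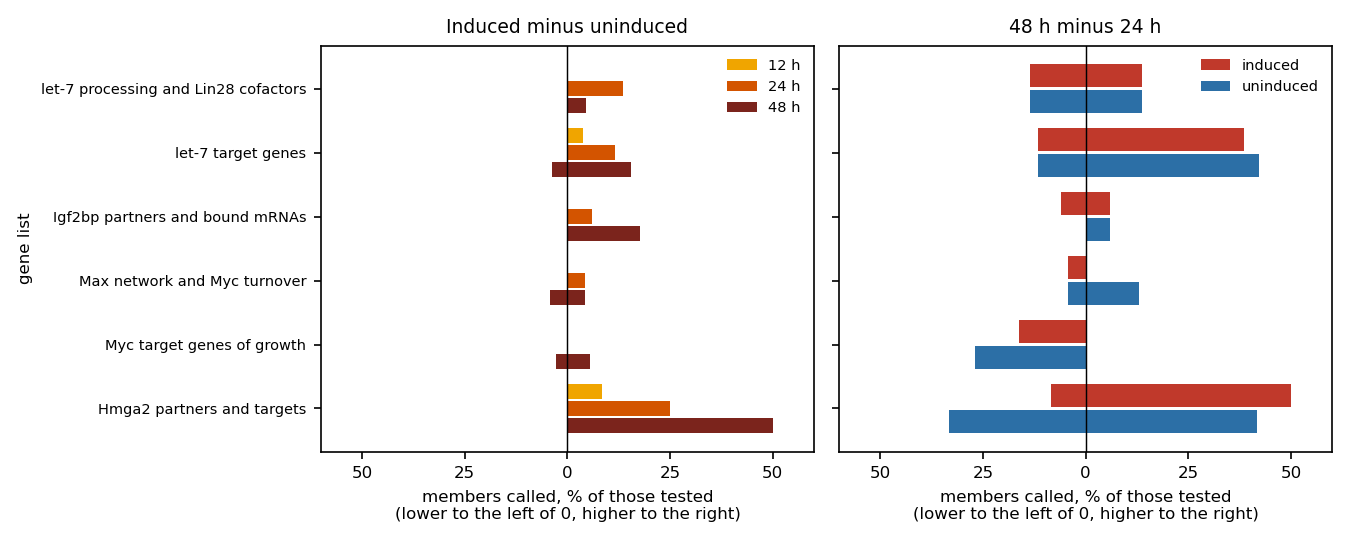
Share of measured members of each pathway list called higher (right of 0) or lower (left of 0), in % of those tested, for induced minus uninduced embryoid bodies at 12, 24 and 48 h (left panel) and for 48 h minus 24 h in induced and uninduced ones (right panel). The Hmga2 list has the longest bar on induction (6 of 12 at 48 h), and the Myc target list has bars to the left only between 24 and 48 h (6 of 37 in induced and 10 of 37 in uninduced).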

How the data were processed

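Total RNA (100 ng, RNA integrity number above 9, per the labels' protocols) of 18 samples was hybridised to Affymetrix 3' arrays. The authors' deposited table holds linear intensity values per probe set; the submitters' processing notes name GCOS, and the signal algorithm is not given in the sources used here. The 2% trimmed mean of the deposited values was 150 on every array, and array medians ran from 18.8 to 22.1 (range 0.0922 in log2), so no further normalization was added. Scaling of this kind removes any change in total RNA. Of 45101 probe sets, 64 were controls, 34945 had 1 symbol, 932 several and 9160 none.

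Values were taken as log2(signal + 32). Probe sets were kept where a group mean reached the 40th percentile (signal 13.2), and limma 3.58.1 in R 4.3.3 fitted 1 mean per group with an intensity trend; two-sided p-values were adjusted by Benjamini-Hochberg over 30518 probe sets. The script was tested on simulated data. The precision is limited by 3 arrays a group. Members and lists were chosen with earlier results of these data known. Of each pathway list up to 3 called genes with the largest change per induction comparison were named, and for likeness the 3 genes with the highest Pearson r. Figures were drawn with matplotlib 3.10.9.

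Replicate numbers are shared by the groups in the labels. Deviations of same-numbered induced and uninduced arrays correlated at 0.187, 0.11 and 0.415 at 24 h, at -0.00857, 0.0739 and -0.0851 at 12 h, and at -0.0838, -0.0231 and 0.13 at 48 h. At 24 h induced replicate 1 with uninduced replicate 2 gave 0.185, and induced 2 with uninduced 1 gave 0.0965. Pairs of a replicate 3 with another number lay within -0.309 to -0.172. Only the arrays numbered 3 at 24 h thus stood out as a pair by number, and no pairing showed at 12 or 48 h. Alternatives were quantile normalization, offsets of 16 and 64, no filter and a 60th percentile filter, no trend, a robust fit, 1 probe set per gene, only the arrays compared, replicate blocks, and each array left out.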

Additional observations from a re-analysis of the deposited data

Results flagged for a closer look

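The effect of induction differed between times in 4 results, each by limma's test of the difference itself over all probe sets. For Hmga2 probe set 1450780_s_at the effect was larger at 24 h than at 12 h by 0.93 (adjusted p = 0.0125). For Hmga2 probe set 1422851_at it was larger at 48 h than at 24 h by 0.73 (adjusted p = 0.0386), a call that ended in 15 of 28 alternatives. For Myc it was larger at 48 h than at 24 h by 0.85 (adjusted p = 0.0172). For Mycl the effect at 48 h minus that at 24 h was -0.66 (adjusted p = 0.0323), although neither effect passed on its own. The calls of Hmga2 1450780_s_at, Myc and Mycl also ended in some alternatives, as given above.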

How the results depend on the processing

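Over 29 alternative settings no called value of the 8 leading probe sets changed sign: of 17 called values 10 kept the call in all of them and 7 lost it in at least 1, and 4 of 55 uncalled values gained one. With 1 probe set per gene only 8 members are tested, by construction, beside 14282 genes in all. The count called at 24 h on induction was 1, beside 558 of all genes. Between 24 and 48 h it was 4 in induced (3691 of all) and 4 in uninduced embryoid bodies (3506 of all). Between 12 and 24 h it was 3 in induced ones (1983 of all). On induction at 48 h Hmga2 and Myc were called higher and Lin28a lower, beside 1773 of all genes called. For the difference of the induction effect between 24 and 12 h, 0 members were called without a trend. For that between 48 and 24 h, 1 was called without a filter and 1 without a trend; the cause was not tested. Leaving out each array in turn gave 0 to 0 calls on induction at 12 h, 2 to 3 at 24 h and 4 to 5 at 48 h, 3 to 6 and 6 to 9 over the time steps in induced embryoid bodies, 0 to 0 and 6 to 9 in uninduced ones, and 0 to 1 and 0 to 3 for the differences of the effect. With the replicate block within each time, the 3 Hmga2 calls at 24 h held (Hmga2 adjusted p = 8.64e-06, 0.00549 and 0.00351), and at 48 h Lin28a (-0.28, adjusted p = 0.00483) and Igf2bp3 probe set 1433732_x_at (0.26, adjusted p = 0.0266) were called too, while the Mycl difference between 48 and 24 h was not (-0.66, adjusted p = 0.0602) and that of Lin28a was (-0.34, adjusted p = 0.0434); over all arrays the replicate block gave Lin28a an adjusted p of 0.0448. Over all probe sets, fitting only the arrays compared called 258 at 24 h on induction, against 578 with all arrays, and 135 between 12 and 24 h in uninduced embryoid bodies, against 616 (408 without a trend). The difference of the effect between 24 and 12 h had 8 calls without a trend and 21 with the replicate block within each time, against 13. Dim probe sets (Lin28b, and single probe sets of Hmga2, Mycn and Mycl) limit what could be seen.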
